A study of Mus musculus with 15 samples.

Results

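The genes described here encode proteins of elastic fibres and of the microfibrils on which those fibres form: Eln, Fbn1, Fbln2, Fbln7, Mfap2, Mfap4, Mfap5, Emilin1 and Efemp1. The 9 genes were named as a group and not by a cut on their values, but earlier results of these data were known. Of these, 8 had a value, out of 13513 genes with a value under a symbol. The platform annotation used here gives no probe set the symbol Fbn1, so fibrillin-1, the main protein of microfibrils, was not analysed here. In the deposited table the values stand 6900 rows below their identifiers (6903 rows for chromosomes 10 and 11), a shift that was inferred and that no header or label states. If it were wrong, the values below would belong to other genes.

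An elastic fibre has a core of crosslinked elastin laid down on a scaffold of fibrillin microfibrils. Small microfibril-associated glycoproteins bind the fibrillins, fibulins and EMILIN-1 sit where elastin meets the microfibril, and lysyl oxidases crosslink the elastin. Microfibrils also hold latent TGF-beta through the latent TGF-beta binding proteins. In the heart, elastic fibres lie in vessel walls, valves, the epicardium and the interstitium, and fibroblasts and smooth muscle cells are known to make their proteins.

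Affymetrix arrays measured RNA of cells from wild-type C57BL/6 mouse hearts, with 5 arrays in each of 3 groups and mice aged 8 to 12 weeks. CF are cardiac fibroblasts of unstressed hearts, with no operation named. aCF are activated cardiac fibroblasts, and EpiSC are stromal cells of the activated epicardium, both from hearts taken 5 days after myocardial infarction. All hearts were digested with collagenase, EpiSC were freed from the surface by shear, and CF and aCF came from ventricles without atria after strainers and a slow spin. The fractions were therefore defined by isolation, and the sources used here name no sort. The labels call the arrays biological replicates. They do not say how many hearts an array holds, or whether an aCF and an EpiSC array share a heart, so p-values measure the spread between these arrays. No sham-operated group is named, so an effect of surgery and of infarction cannot be told apart.

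Values are log2 expression from which the authors subtracted the probe set's median of all 15 arrays. A value of 0 is therefore the middle array and not absence, and levels of different genes cannot be compared. In these cell mixtures, fewer cells of a type and less RNA per cell cannot be told apart. A gene is said to have risen or fallen where limma's moderated test passed 0.05 after Bonferroni adjustment over all 22206 rows, the correction named in the series design text. Calls after Benjamini-Hochberg adjustment over the same rows are given beside it. Counts at an unadjusted p under 0.05 are a description only, since the share of all rows at that level was not counted.

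Promoter sequence was available from RefSeq for 6 of the 9 genes (build GRCm38.p6), and 3 are shown: Mfap2 and Emilin1, which were highest in aCF, and Efemp1, which was lowest there. Each line holds the 250 bases before the annotated start on the plus strand. The intervals are chr4:141010431-141010680 for Mfap2, chr5:30913536-30913785 for Emilin1 and chr11:28852955-28853204 for Efemp1. For Mfap2, RefSeq lists 2 starts, and the first listed is printed. Capitals mark matches on either strand to the AP-1 motif TGANTCA, the SMAD motif CAGAC, the GC box GGGCGG or the E-box CAGCTG. The TATA box letters TATAAA and the TEAD motif GGAATG were searched in the same way.
Mfap2: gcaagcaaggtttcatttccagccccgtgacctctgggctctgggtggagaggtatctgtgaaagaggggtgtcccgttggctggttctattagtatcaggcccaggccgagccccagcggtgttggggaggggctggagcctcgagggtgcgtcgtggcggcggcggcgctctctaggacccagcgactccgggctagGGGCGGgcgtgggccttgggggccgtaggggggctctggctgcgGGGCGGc
Emilin1: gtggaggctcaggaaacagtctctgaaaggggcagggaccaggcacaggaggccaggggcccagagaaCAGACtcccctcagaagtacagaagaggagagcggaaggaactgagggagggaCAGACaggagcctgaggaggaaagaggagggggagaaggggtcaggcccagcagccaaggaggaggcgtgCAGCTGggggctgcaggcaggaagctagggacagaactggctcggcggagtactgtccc
Efemp1: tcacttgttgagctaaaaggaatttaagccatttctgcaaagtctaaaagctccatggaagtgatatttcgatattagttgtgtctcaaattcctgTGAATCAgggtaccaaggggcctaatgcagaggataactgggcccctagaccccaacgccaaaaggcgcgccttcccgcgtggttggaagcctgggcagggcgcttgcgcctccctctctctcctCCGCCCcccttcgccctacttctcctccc
The Mfap2 window held 2 GC boxes, the Emilin1 window 2 SMAD motifs and 1 E-box, and the Efemp1 window 1 AP-1 match and 1 GC box. No TATA box letters lay in any of the 3 windows. Of all 32851 promoter windows of this length, 32.7% held the GC box letters, 42.2% the SMAD motif, 13% the E-box, 12.6% the TEAD letters, 12.4% the TATA box and 6.75% the AP-1 letters. The window of the other Mfap2 start held 1 SMAD and 1 TEAD motif. GC content was 68.8% for Mfap2, 63.2% for Emilin1 and 53.6% for Efemp1, beside a median of 52.4% over all windows. A match is a run of letters and was not tested as a binding site.

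After infarction, the fibroblast fraction held more RNA of the microfibril proteins Mfap2 and Mfap4 than that of unstressed hearts, and less of the fibulin Efemp1. Mfap2 rose 2.71-fold and Mfap4 rose 2.40-fold, whereas Efemp1 was 2.91-fold lower. In aCF against CF, 3 of the 8 genes passed the Bonferroni threshold, 2 higher and 1 lower, beside 1.53% of all rows. After Benjamini-Hochberg adjustment 5 of 8 passed, 4 higher and 1 lower, beside 18.1% of all rows. The same 5 genes had no overlap between aCF and CF arrays, Eln, Mfap2, Mfap4, Emilin1 and Efemp1, beside 14.7% of all rows. The median log2 difference over the 8 genes was 0.37, beside -0.022 over all rows.

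In 7 of the 8 genes the aCF mean was the highest of the 3 group means, and in Efemp1 it was the lowest. The 7 include Fbln7, whose differences passed neither adjustment. The share of all rows with the highest mean in aCF was not counted, so this count is a description only. The comparisons share groups of arrays, so their values are not independent of each other.

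**Figure D1:**
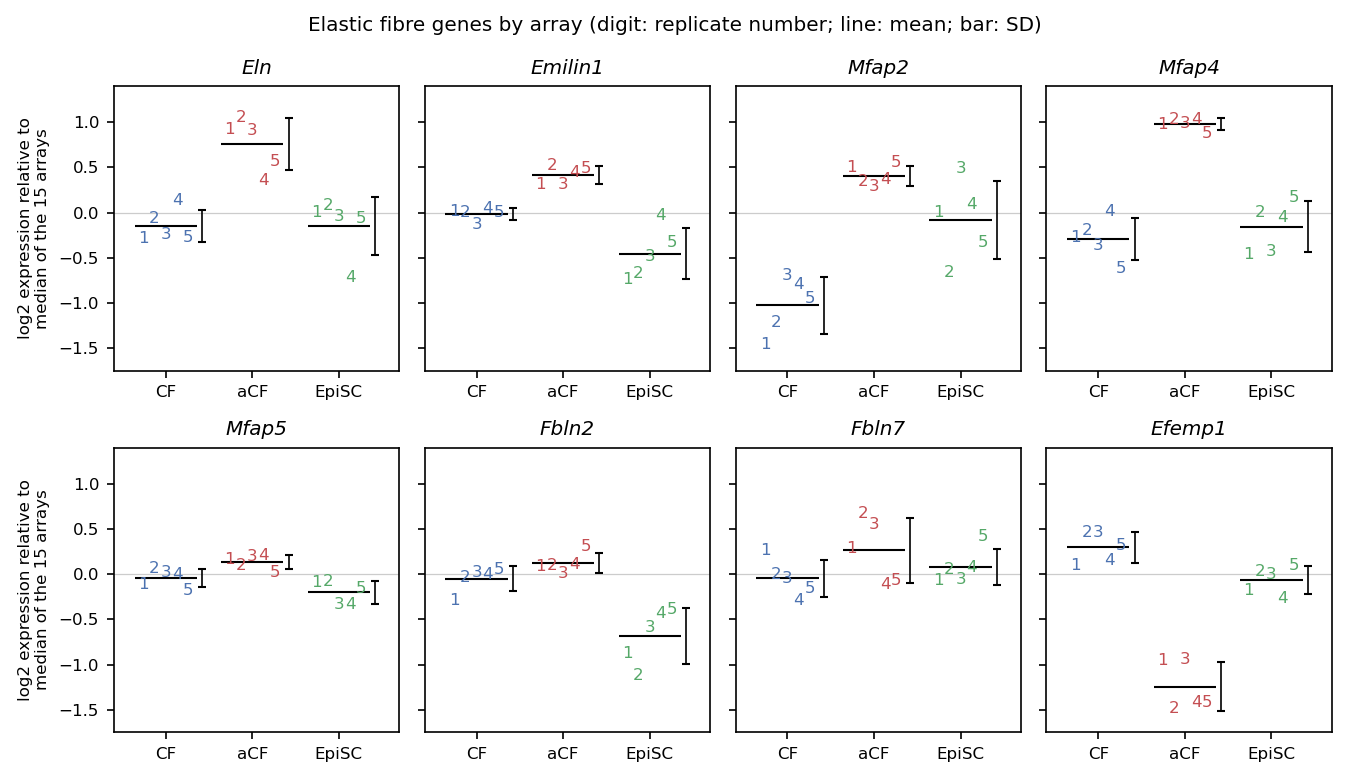
Log2 expression of 8 elastic fibre genes relative to the median of the 15 arrays, by group, with each digit showing 1 array by its replicate number, the line the mean and the bar the SD of 5 arrays. The aCF arrays lie highest for Mfap4 (0.87 to 1.03) and lowest for Efemp1 (-1.49 to -0.94).

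Eln encodes tropoelastin, the soluble monomer of the elastin core. Its centred log2 values on replicates 1 to 5 were -0.29, -0.06, -0.24, 0.13 and -0.28 in CF, 0.92, 1.05, 0.91, 0.36 and 0.56 in aCF, and 0.00, 0.08, -0.04, -0.72 and -0.07 in EpiSC. Every aCF array lay above every array of the other groups, and aCF4 and aCF5 were the lowest of the aCF arrays. The log2 difference between aCF and CF was 0.91 ± 0.14 (SE, n = 5 arrays per group), a 1.88-fold difference. It passed Benjamini-Hochberg (adjusted p = 0.00136) but not Bonferroni adjustment in limma (adjusted p = 1). EpiSC differed from aCF by -0.91 ± 0.18, again past Benjamini-Hochberg only (adjusted p = 0.00959). EpiSC and CF had means of -0.15 and -0.15, and the 95% interval of their difference ran from -0.34 to 0.34.

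Mfap2 encodes MAGP-1, a small glycoprotein that binds fibrillin and is built into most microfibrils. On replicates 1 to 5 it read -1.46, -1.22, -0.70, -0.80 and -0.95 in CF, 0.50, 0.34, 0.29, 0.37 and 0.55 in aCF, and 0.00, -0.66, 0.49, 0.09 and -0.33 in EpiSC. All 5 CF arrays lay below every array of the other groups, by 0.04 between the nearest CF and EpiSC arrays, and the EpiSC and aCF arrays overlapped. EpiSC spread over 1.15 log2 units, with an SD of 0.44 against 0.11 in aCF. The rise in aCF was 1.44 ± 0.14 (limma, Bonferroni adjusted p = 0.0142). This call was lost without any single aCF array, without CF2 or without CF5 (adjusted p up to 0.0836), while the difference stayed between 1.33 and 1.52 in all 10 omissions. EpiSC differed from CF by 0.94 ± 0.22 (Benjamini-Hochberg adjusted p = 0.0076) and from aCF by -0.49 ± 0.18 (Benjamini-Hochberg adjusted p = 0.129), neither past Bonferroni.

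Mfap4 encodes a fibrinogen-related protein that binds elastin and fibrillin and is abundant around vessels. Its values were -0.28, -0.20, -0.36, 0.01 and -0.62 in CF, 0.97, 1.03, 0.98, 1.03 and 0.87 in aCF, and -0.46, 0.00, -0.43, -0.05 and 0.17 in EpiSC. The aCF arrays lay 0.70 or more above every other array and had the smallest spread of any of the 8 genes in any group, with an SD of 0.065. CF and EpiSC overlapped. Mfap4 rose in aCF against CF by 1.27 ± 0.10 (Bonferroni adjusted p = 0.0031), a call that held in all 10 omissions of an array. EpiSC lay below aCF by 1.13 ± 0.12, just short of the Bonferroni threshold (adjusted p = 0.0589; Benjamini-Hochberg adjusted p = 0.00037). Without EpiSC5 that difference passed (adjusted p = 0.028), and over the 10 omissions its adjusted p lay between 0.028 and 0.339. EpiSC and CF differed by 0.14 ± 0.15, with a 95% interval from -0.19 to 0.47.

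Mfap5 encodes MAGP-2, the relative of MAGP-1 with a narrower tissue range. It read -0.12, 0.06, 0.02, 0.00 and -0.18 in CF, 0.16, 0.10, 0.19, 0.21 and 0.02 in aCF, and -0.09, -0.08, -0.34, -0.34 and -0.16 in EpiSC. Its whole range over the 15 arrays was 0.55 log2 units, the narrowest of the 8 genes. The difference between aCF and CF was 0.18 ± 0.07, and the groups overlapped (Benjamini-Hochberg adjusted p = 0.0838). The 95% interval of that difference ran from 0.036 to 0.32. EpiSC lay below aCF without overlap, by 0.34 ± 0.08 (Benjamini-Hochberg adjusted p = 0.0188, Bonferroni adjusted p = 1).

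Emilin1 encodes EMILIN-1, a glycoprotein at the interface of elastin and microfibril that also restrains the maturation of TGF-beta. Its values were 0.01, 0.00, -0.13, 0.05 and 0.00 in CF, 0.31, 0.52, 0.31, 0.44 and 0.49 in aCF, and -0.74, -0.67, -0.49, -0.03 and -0.33 in EpiSC. CF lay between the other groups, and EpiSC4 was the EpiSC array that reached into the CF range. The aCF arrays overlapped neither CF nor EpiSC. The difference between aCF and CF was 0.43 ± 0.06 (Benjamini-Hochberg adjusted p = 0.00107, Bonferroni adjusted p = 0.842). EpiSC differed from aCF by -0.87 ± 0.13 (Benjamini-Hochberg adjusted p = 0.00218) and from CF by -0.44 ± 0.12 (Benjamini-Hochberg adjusted p = 0.0207).

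Fbln2 encodes fibulin-2, a large fibulin of elastic fibres and basement membranes. It read -0.29, -0.04, 0.02, 0.00 and 0.05 in CF, 0.08, 0.09, 0.01, 0.11 and 0.31 in aCF, and -0.88, -1.12, -0.59, -0.44 and -0.39 in EpiSC. All EpiSC arrays lay below all arrays of both fibroblast groups, and CF and aCF overlapped. EpiSC differed from aCF by -0.80 ± 0.14 (Benjamini-Hochberg adjusted p = 0.00513) and from CF by -0.63 ± 0.14 (Benjamini-Hochberg adjusted p = 0.00653), neither past Bonferroni (adjusted p = 1 for each). The difference between aCF and CF was 0.17 ± 0.08, with a 95% interval from -0.0074 to 0.35.

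Fbln7 encodes fibulin-7, a short fibulin with adhesive properties. It read 0.26, 0.00, -0.05, -0.29 and -0.16 in CF, 0.28, 0.67, 0.55, -0.12 and -0.07 in aCF, and -0.07, 0.05, -0.06, 0.07 and 0.42 in EpiSC. The 3 groups overlapped, and aCF4 and aCF5 lay below the other aCF arrays. No comparison of Fbln7 passed either adjustment, and its log2 differences were 0.31 ± 0.17 for aCF against CF, -0.18 ± 0.17 for EpiSC against aCF and 0.13 ± 0.12 for EpiSC against CF.

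Efemp1 encodes fibulin-3, a short fibulin of the extracellular matrix. Its values were 0.09, 0.46, 0.46, 0.15 and 0.32 in CF, -0.96, -1.49, -0.94, -1.42 and -1.42 in aCF, and -0.18, 0.03, 0.00, -0.27 and 0.09 in EpiSC. It was the gene of the 8 with its lowest values in aCF: the highest aCF array lay 0.67 below the lowest array of the other groups. EpiSC and CF met at 0.09. The fall in aCF against CF was -1.54 ± 0.13 (Bonferroni adjusted p = 0.00556), and this call held in all 10 omissions (adjusted p up to 0.0388). EpiSC lay above aCF by 1.18 ± 0.13, short of Bonferroni (adjusted p = 0.0789; Benjamini-Hochberg adjusted p = 0.000451). EpiSC differed from CF by -0.36 ± 0.10 (Benjamini-Hochberg adjusted p = 0.0192). A further quantile normalization, run on the deposited centred values, moved the difference between EpiSC and aCF to 1.68 and past Bonferroni (adjusted p = 0.00684). The authors had already quantile normalized the arrays before centring.

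The 3 calls of aCF against CF were lost when aCF4 and aCF5 were left out. Without aCF4 and aCF5, none of the 8 genes passed Bonferroni adjustment in limma. Mfap2 then differed by 1.4 (adjusted p = 0.508), Mfap4 by 1.28 (adjusted p = 0.108) and Efemp1 by -1.43 (adjusted p = 0.17), with 3 aCF arrays left in the fit. With all aCF arrays these differences were 1.44, 1.27 and -1.54. No other pair of arrays was left out, so an effect of aCF4 and aCF5 and one of fewer arrays cannot be told apart. The arrays aCF4 and aCF5 held less RNA of heart muscle genes: the mean centred value over 11 heart muscle markers was -0.63 in aCF4 and -0.57 in aCF5, against 0.03, 0.17 and 0.31 in aCF1 to aCF3. Endothelial markers were lower there too, with a mean over 10 markers of -0.127 in aCF4 and -0.014 in aCF5. In aCF1 to aCF3 that mean was 0.365, 0.239 and 0.107. Whether these marker values bear on the lower Eln and Fbln7 values of aCF4 and aCF5 was not tested.

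EpiSC against aCF compares the cells of the activated heart surface with fibroblasts of the injured ventricle. None of the 8 genes passed Bonferroni adjustment in limma, beside 0.666% of all rows, while 7 had an unadjusted p under 0.05, 6 of them lower in EpiSC. The share of all rows at that unadjusted level was not counted. After Benjamini-Hochberg adjustment 6 of 8 passed, Eln, Fbln2, Mfap4, Mfap5 and Emilin1 lower and Efemp1 higher, beside 9.61% of all rows. The same 6 genes did not overlap between the groups, beside 9.91% of all rows. The median difference over the 8 genes was -0.65, beside 0.01 over all rows. Fibroblast markers moved with them: 10 of 11 had differences below 0 in EpiSC against aCF, 6 of them lower after Benjamini-Hochberg adjustment. The largest differences below 0 were those of Tbx20 (-1.63 ± 0.18) and Tcf21 (-0.98 ± 0.19), and Pdpn was higher (0.52 ± 0.06). The median difference over the 11 fibroblast markers was -0.24, smaller in size than that of the 8 genes. The mean centred value of that list ranged from 0.063 to 0.12 in aCF and from -0.39 to -0.092 in EpiSC. The part of fibroblast content in the elastic fibre values was not tested. In a fit of all 3 groups, which shares 1 estimate of the spread, Mfap4 (adjusted p = 0.0079), Emilin1 (adjusted p = 0.0308) and Efemp1 (adjusted p = 0.00326) passed Bonferroni.

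EpiSC against CF is a comparison that the design text does not name. Here 0 of 8 genes passed Bonferroni in limma, beside 2.91% of all rows, with 4 at an unadjusted p under 0.05. The share of all rows at that unadjusted level was not counted, and it is at least the 32.2% given next. After Benjamini-Hochberg adjustment 4 of 8 passed, Mfap2 higher and Fbln2, Emilin1 and Efemp1 lower in EpiSC, beside 32.2% of all rows. Fbln2 and Mfap2 did not overlap, 2 of 8 genes beside 23.4% of all rows. The share of genes whose groups do not overlap was thus near that of all rows in this comparison. The median difference was -0.08, beside -0.008 over all rows.

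**Figure D2:**
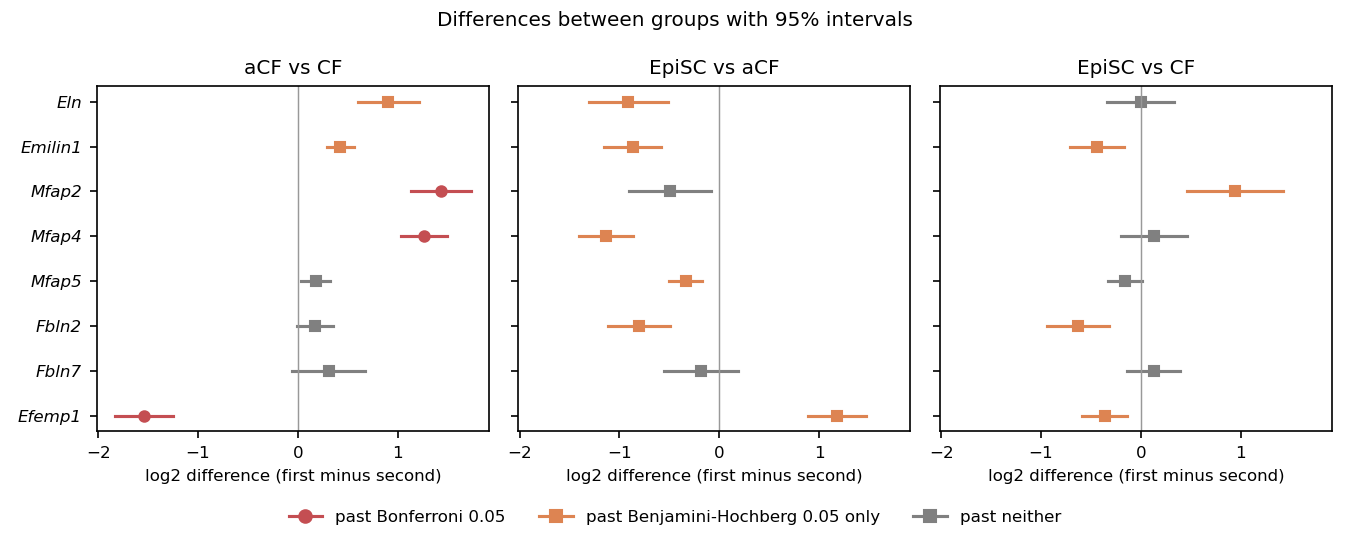
Log2 differences between groups (first minus second) for 8 elastic fibre genes, with 95% intervals from limma and colour for the adjustment passed. Mfap2 and Mfap4 lie above 0 and Efemp1 below 0 past Bonferroni in aCF against CF, and no gene passes it in the other comparisons.

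Other genes of the pathway, listed by role, did not follow a common direction. The list of other structural genes has 10 with a value, and 0 passed Bonferroni in any comparison in limma. For aCF against CF, 7 had an unadjusted p under 0.05, and after Benjamini-Hochberg adjustment 1 was higher and 5 were lower in aCF. The largest of these differences was that of Vwa1, a matrix protein with a von Willebrand factor A domain, at -1.55 ± 0.18 (Bonferroni adjusted p = 0.109). The 5 lower genes include Mfap1a (-0.39 ± 0.08) and Mfap1b (-0.40 ± 0.09), which encode nuclear splicing proteins in spite of their names and are not structural. The higher one was Mfap3, which encodes a microfibril-associated glycoprotein, at 0.68 ± 0.14 (Benjamini-Hochberg adjusted p = 0.00649).

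Among 6 latent TGF-beta binding proteins and ligands with a value, none passed Bonferroni in limma. Between EpiSC and aCF, 5 had an unadjusted p under 0.05, and the 2 that were lower in EpiSC passed Benjamini-Hochberg. Ltbp4, the binding protein best known for elastic fibre assembly, had a mean of 0.46 in CF, -0.066 in aCF and -1.08 in EpiSC. It differed by -0.53 ± 0.07 between aCF and CF (Benjamini-Hochberg adjusted p = 0.000853) and by -1.01 ± 0.19 between EpiSC and aCF (Benjamini-Hochberg adjusted p = 0.00748). Tgfb1, the TGF-beta1 ligand, differed by -0.74 ± 0.08 between EpiSC and aCF (Bonferroni adjusted p = 0.0696) and by 0.39 ± 0.09 between aCF and CF (Benjamini-Hochberg adjusted p = 0.012).

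Of 9 genes of crosslinking and fibre assembly, 1 rose and 1 fell in aCF against CF. The lysyl oxidase relative Loxl3 rose by 0.88 ± 0.07 (Bonferroni adjusted p = 0.00417), and Pcolce2, an enhancer of procollagen cleavage, fell by 0.53 ± 0.06 on the log2 scale (Bonferroni adjusted p = 0.0397). After Benjamini-Hochberg adjustment 3 of the 9 were higher and 2 lower in aCF against CF. Loxl1, the lysyl oxidase relative known for crosslinking elastin, differed there by 0.26 ± 0.05 (Benjamini-Hochberg adjusted p = 0.0039). Between EpiSC and aCF it differed by -0.35 ± 0.08 (Benjamini-Hochberg adjusted p = 0.0209). Tgm2 of the same list went the other way. It differed by -0.59 ± 0.11 between aCF and CF (Benjamini-Hochberg adjusted p = 0.00451) and by 0.84 ± 0.13 between EpiSC and aCF (Benjamini-Hochberg adjusted p = 0.00329).

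Of 7 ADAMTS and ADAMTSL proteins that bind or remodel microfibrils, Adamtsl5 fell by 0.60 ± 0.05 in aCF against CF (Bonferroni adjusted p = 0.00967) and Adamtsl3 was lower in EpiSC. Adamtsl3 differed by -1.76 ± 0.16 between EpiSC and aCF (Bonferroni adjusted p = 0.0141) and by -2.13 ± 0.16 between EpiSC and CF (Bonferroni adjusted p = 0.0016). Adamtsl2, which binds fibrillin-1 and latent TGF-beta binding protein, had a larger difference between EpiSC and aCF, -2.43 ± 0.27, with a larger error, and did not pass (Bonferroni adjusted p = 0.0865). Adamts17 differed by 2.03 ± 0.24 between aCF and CF and did not pass either (Bonferroni adjusted p = 0.137). After Benjamini-Hochberg adjustment 2 of the 7 were higher and 3 lower in EpiSC against aCF. The higher ones were Thsd4, which encodes ADAMTSL6, a fibrillin-1 binding protein, at 2.0 ± 0.41 (Benjamini-Hochberg adjusted p = 0.0126) and Adamtsl1 at 0.80 ± 0.11 (Benjamini-Hochberg adjusted p = 0.00157).

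Among 12 genes of elastin breakdown and its inhibition, 3 rose and 0 fell in aCF against CF at the Bonferroni threshold. After Benjamini-Hochberg adjustment 4 were higher and 3 lower, and the list median was 0.001. The lower ones were the metalloproteinases Mmp3 (-1.08 ± 0.26) and Mmp2 (-0.15 ± 0.04) and the inhibitor Timp4 (-0.72 ± 0.22). The elastin-degrading cathepsins Ctss (1.0 ± 0.08, Bonferroni adjusted p = 0.00213) and Ctsk (0.91 ± 0.09, Bonferroni adjusted p = 0.0257) rose together with Timp1, an inhibitor of metalloproteinases (1.99 ± 0.12, Bonferroni adjusted p = 0.000238). Ctss is also a macrophage gene. Of 8 macrophage markers with a value, 0 passed Bonferroni in limma in aCF against CF, 5 were higher at an unadjusted p under 0.05 and 3 after Benjamini-Hochberg adjustment. Their mean centred value ranged from -0.19 to 0.05 in CF and from 0.14 to 0.44 in aCF, and their part in the Ctss value was not tested. Between EpiSC and CF, Timp1 rose by 2.57 ± 0.13 (Bonferroni adjusted p = 3.16e-05).

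Of 8 receptors for elastic fibre proteins, 1 passed in any comparison: the integrin subunit Itga8 fell by 2.71 ± 0.25 in EpiSC against CF (Bonferroni adjusted p = 0.0123), with means of 1.51 in CF, 0.19 in aCF and -1.20 in EpiSC.

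**Figure D3:**
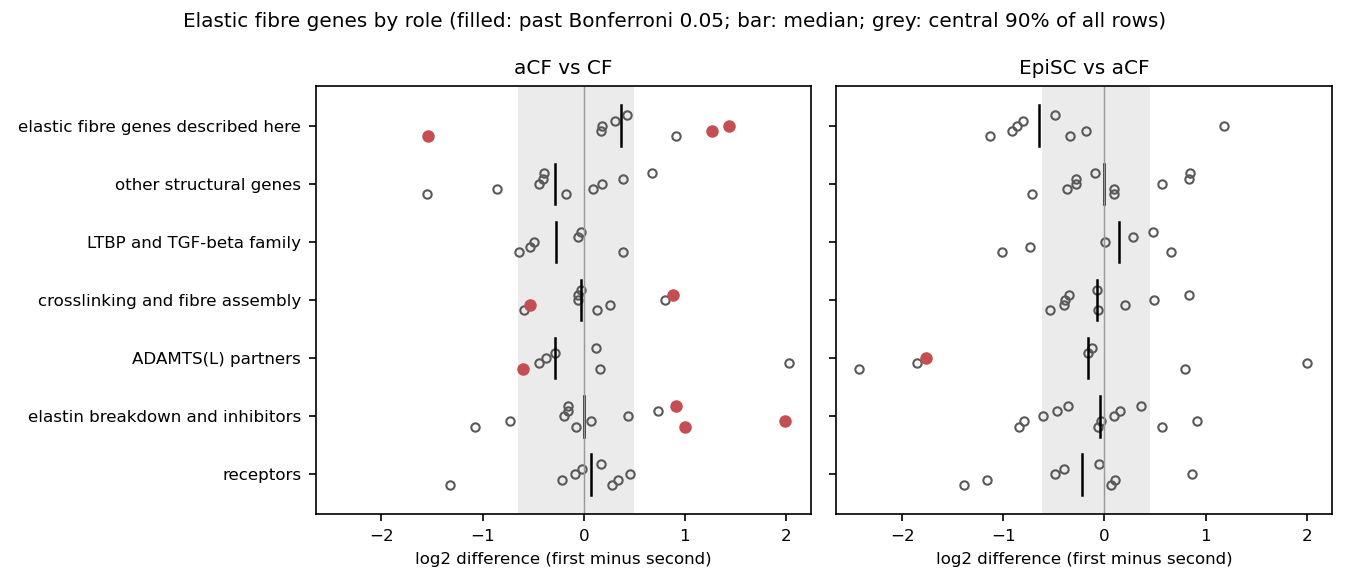
Log2 differences (first minus second) for the 8 elastic fibre genes and for further genes of the pathway by role, with each circle 1 gene, filled circles past Bonferroni 0.05, bars the list medians and the grey band the central 90% of all 22206 rows. The band runs from -0.64 to 0.49 in aCF against CF, and Mfap2, Mfap4, Eln and Efemp1 lie outside it.

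Markers of other cell types moved with the groups. Of 11 mural and smooth muscle markers, Tagln (2.36 ± 0.14) and Cnn1 (2.98 ± 0.32), contractile genes that myofibroblasts also express, rose in aCF against CF, and Rgs5 (-3.58 ± 0.21) and Higd1b (-2.10 ± 0.16) fell in EpiSC against aCF. Between aCF and CF, 7 of the 11 differences were above 0 and 4 below, and 5 genes were higher and 0 lower after Benjamini-Hochberg adjustment. Rgs5, a pericyte gene, was among the higher ones (1.13 ± 0.25), as were Mcam (1.58 ± 0.22) and Cspg4 (0.99 ± 0.23) of the same list. Higd1b had a difference above 0 that did not pass (0.33 ± 0.19). The pericyte genes Abcc9 (-0.62 ± 0.24), Kcnj8 (-0.30 ± 0.22) and Vtn (-0.30 ± 0.20) had differences below 0 that did not pass. The mean centred value of the mural list ranged from -0.61 to 0.055 in CF, 0.34 to 0.63 in aCF and -0.99 to -0.56 in EpiSC. The aCF arrays lay above all others, and CF and EpiSC overlapped. Smooth muscle cells are a known source of Eln and Mfap4, whose aCF arrays were also the highest. The part of mural cells in the Eln and Mfap4 values was not tested. Of 10 endothelial markers, none passed between aCF and CF in limma (7 at an unadjusted p under 0.05). Of these differences 8 were below 0, among them Tek (-1.07 ± 0.12), and 2 above, among them Ptprb (1.14 ± 0.19). In EpiSC against aCF 8 were below 0 and 2 above. There Ptprb fell by 3.09 ± 0.15, and Esam had a difference above 0 (0.45 ± 0.13). Defining markers at 0 could not be read, since centred values hold no level.

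The labelled identities were checked on markers in the same way. Of 9 epicardial and mesothelial markers, 3 rose and 0 fell in EpiSC against aCF, among them Wt1 (2.01 ± 0.18). After Benjamini-Hochberg adjustment 7 were higher. Tbx18 (0.10 ± 0.16) and Aldh1a2 (-0.018 ± 0.14) passed neither adjustment. The list mean lay between 1.33 and 1.92 in EpiSC and at 0.21 or lower in every other array. Of 11 fibroblast markers, Col1a1 (1.18 ± 0.06), Col1a2 (1.27 ± 0.06) and Col3a1 (1.07 ± 0.09) rose and Ddr2 (-0.69 ± 0.06) fell in aCF against CF. Over that list 4 differences were above 0 and 7 below, with a median of -0.028, and Tcf21, a fibroblast transcription factor, was lower (-0.38 ± 0.09, Benjamini-Hochberg adjusted p = 0.0114).

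**Figure D4:**
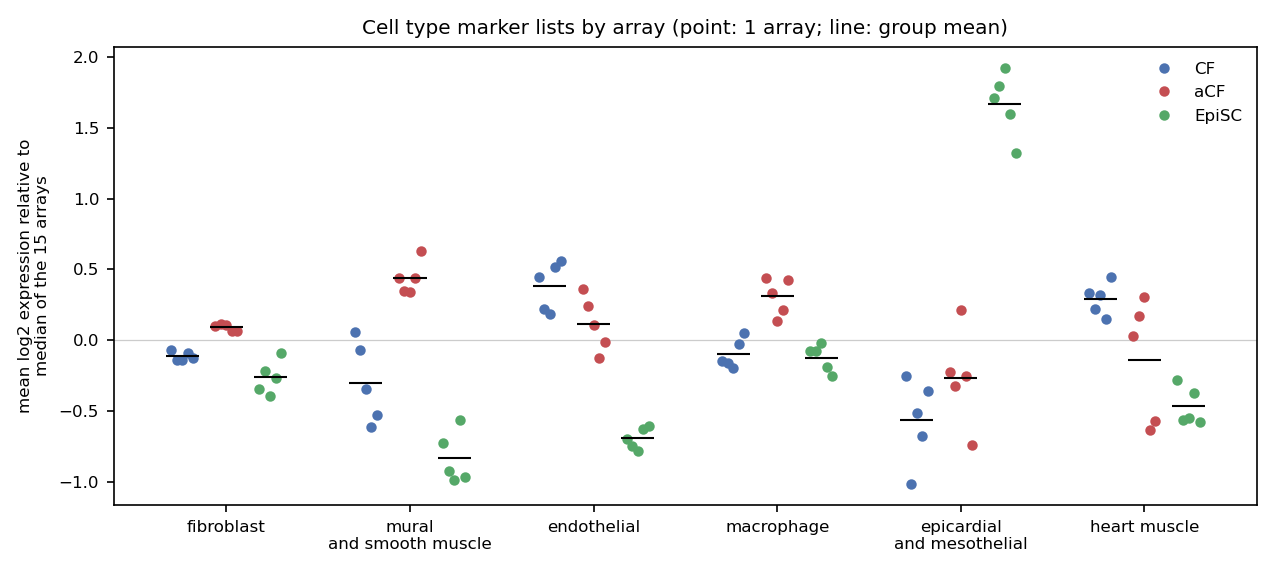
Mean centred log2 expression of 6 lists of cell type markers, with each point 1 array and lines the group means. The mural and smooth muscle list is highest in aCF (0.34 to 0.63) and lowest in EpiSC (-0.99 to -0.56).

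Genes with the most similar pattern were sought among the 13512 other named genes by Pearson's r over the 15 arrays, as a description that mixes differences between groups with those within them. The closest to Emilin1 were Srpx2 (r = 0.973), the Wnt antagonist Sfrp1 (r = 0.966) and Jph2 (r = 0.963). Closest to Mfap4 were the actin-bundling gene Pls3 (r = 0.96), the cathepsin gene Ctsk (r = 0.958) and Clec11a (r = 0.951), and closest to Efemp1 were Cadm3 (r = 0.963), the heparan sulphate sulphotransferase Hs3st1 (r = 0.956) and Ppp2r5a (r = 0.933). For Mfap2 the first was the hyaluronidase gene Hyal2 (r = 0.944), for Fbln2 the collagen prolyl hydroxylase family gene P3h3 (r = 0.942), for Mfap5 the SMAD corepressor gene Skil (r = 0.916) and for Eln the secretogranin gene Scg2 (r = 0.888). Fbln7 had the weakest, with Pdgfd, a platelet-derived growth factor ligand, at r = 0.821. None of the 8 elastic fibre genes was among the 3 closest to another of them.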

How the data were processed

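Affymetrix arrays of 15 samples were analysed, 5 per group. The deposited values are log2 expression: the design text says that the authors ran quantile normalization, an exon RMA summary and median centring in GeneSpring GX 12.5. Base 2 is inferred. Every row median is 0, so the authors' signal filter (20th percentile) could not be applied. The sources used here give no genome build, and the number of arrays limits the precision.

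Values of identifier row i were read from row i + 6900, or i + 6903 on chromosomes 10 and 11, which paired 15303 of 22206 rows. The platform annotation names 19572 probe sets with 1 symbol, 0 with several and 2634 with none. For genes with several paired probe sets the first by identifier was used, and each of the 8 genes had 1. The displacement was checked with 7 gene lists without these genes, on deviations from group means. On chromosomes 2, 4, 5, 6 and 11, where the 8 genes lie, genes correlated with their list's profile from other chromosomes at a mean of 0.43, 0.324, 0.435, 0.26 and 0.338, the highest of 51 offsets on each (next highest 0.0902 to 0.248). On 10 of 11 chromosomes checked the displacement used was the best, the exception being chromosome 1. Some list genes were known from earlier results, so the check is not independent.

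The main test was lmFit and eBayes of limma 3.58.1 (R 4.3.3), 2-sided, on the arrays of the 2 groups compared, with Bonferroni adjustment over all 22206 rows and a threshold of 0.05, and tested on simulated data. Alternatives were a fit of all 3 groups, quantile normalization, adjustment over named rows, Benjamini-Hochberg, robust empirical Bayes, a replicate block, omission of each array or of aCF4 and aCF5 together, and identifiers as deposited. The quantile normalization among them was run on the deposited values, already quantile normalized and centred by the authors. The genes and lists were chosen with earlier results of these data known. Named genes are the 9 genes, in each other list up to 5 genes past the threshold and then by p, and the 3 genes closest to each by Pearson's r. Loxl1, Thsd4, Mmp3, Timp4, Tcf21 and Pdpn lie outside that rule. Abcc9, Kcnj8, Mcam, Cspg4, Tbx18 and Aldh1a2 were named after their values were seen.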

Additional observations from a re-analysis of the deposited data

Results flagged for a closer look

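In 4 of 24 sets of 5 arrays (8 genes in 3 groups), 1 array lay apart from the others, by a gap above 0.71 of the range. Chance alone gives about 1 in 20. For Eln, EpiSC4 was low, at -0.72. Without it, EpiSC and CF differed by 0.14, and the difference stayed far from the threshold (adjusted p = 1). For Fbln2, CF1 was low, at -0.29. For Fbln7, EpiSC5 was high, at 0.42. For Emilin1, CF3 was low, at -0.13, in a group that spans 0.18 log2 units, so a small deviation was enough.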

How the results depend on the processing

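Of 400 values of single genes under the alternatives, 364 kept their direction and side of the threshold, 12 lost a call, 20 gained one and 4 changed sign. The 4 were Eln in EpiSC against CF, at 0.0856 after quantile normalization and from -0.0595 to 0.141 over omissions of an array. The count of the 8 genes past the threshold in EpiSC against aCF was 3 in a fit of all groups, 2 after quantile normalization, 2 adjusted over named rows, 6 after Benjamini-Hochberg adjustment and 0 to 1 over omissions. In aCF against CF it was 5 after Benjamini-Hochberg adjustment, 0 without aCF4 and aCF5, 2 to 3 over omissions, and 0 with identifiers as deposited, where the rows are those of other genes. In EpiSC against CF it was 4 after Benjamini-Hochberg adjustment. With the replicate number as a block, 1 of the 8 genes passed in aCF against CF, Mfap4, with Mfap2 at adjusted p = 0.664 and Efemp1 at 0.261. The same block gave 41, 94 and 166 probe sets for EpiSC against aCF, aCF against CF and EpiSC against CF, from 148, 340 and 647. Same-numbered arrays of EpiSC and aCF correlated in their deviations at 0.019 to 0.154, and 4 of 5 EpiSC arrays correlated best with their own number among aCF. Between aCF and CF, and between EpiSC and CF, that held for number 1 alone. Whether same-numbered EpiSC and aCF arrays share a heart was not tested, and the main test did not pair them. Over all probe sets the counts were 369 and 1060 in a fit of all groups for EpiSC against aCF and against CF, 2135, 4023 and 7157 after Benjamini-Hochberg adjustment, and 50 and 144 without aCF4 and aCF5. Over omissions they were 73 to 143, 197 to 272 and 369 to 557. The cause was not tested, except that omissions leave fewer arrays.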

Other observations

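Within groups, the 8 genes did not vary as a unit. Over the 28 pairs of genes, deviations from the group means over the 15 arrays had a median Pearson's r of 0.057, with 16 pairs above 0. The range ran from -0.589 (Mfap5 with Emilin1) to 0.689 (Fbln2 with Emilin1), followed by 0.565 for Fbln2 with Mfap2. Eln, the elastin gene, and Emilin1, whose protein binds elastin, both had their highest values in aCF but had r = -0.57 within groups. That r leans on EpiSC4, which had the lowest Eln (-0.72) and the highest Emilin1 (-0.03) value of the EpiSC arrays. The r without EpiSC4 was not computed. The pairs share arrays, and these values are a description with no test.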
